A study of Mus musculus with 32 samples.

Results

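DUX4 is a double-homeobox transcription factor that is active in the early embryo and silent in healthy adult muscle. Its misexpression in muscle underlies facioscapulohumeral dystrophy (FSHD), in which muscle is lost and replaced by fat and connective tissue. In muscle cells DUX4 binds a homeobox motif, switches on genes that are normally silent there and is toxic to the fibre.

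The comparison described here is of whole muscle from mice with an inducible DUX4 gene (group IDUX.2Weeks, 5 libraries) with whole muscle from wild-type mice (WT.2Weeks, 5 libraries), both labelled 2 weeks. These 10 libraries were chosen by their group label from 32 in the series, which also holds 8 whole-muscle libraries at 16 weeks (4 IDUX.16Weeks and 4 WT.16Weeks). Mice of all groups, WT included, are labelled as having received chow with doxycycline, the drug that switches such inducible genes on. What the weeks count from, the promoter or cell type that drives the inducible gene, the strain, age and sex of the mice, the muscle taken and whether each library came from its own animal are details not given in the sources used here. The p-values therefore measure the spread between these libraries, part of which may be technical. The human DUX4 transcript has no entry in the gene tables and was not analysed here.

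Levels are given as CPM, counts scaled to a common library total with trimmed-mean (TMM) factors. Changes are log2 differences, DUX4 minus WT, with their standard error (SE) from a fit to the 10 libraries that includes a term for 2 sets of libraries: replicates 1 to 3 and replicates 4 and 5 of each group, in order of sample listing. A gene is called higher (it rose) or lower (it fell) at an adjusted p under 0.05 in edgeR's quasi-likelihood test with Benjamini-Hochberg adjustment, and every adjusted p below comes from that test. Totals ran from 10611275 to 17798523 counts per library, and a count of 0 allowed a level of up to 0.169 to 0.283 CPM in the WT libraries, taking 3 counts as the limit. That limit covers counting error only. The share of mitochondrially encoded counts was 11.6 to 15.7% in the first set and 16.7 to 23.8% in the second, and 1479 genes were called for the term for sets. The labels do not name these sets, which were taken from the order of sample listing. Genes that differ along the body axes differed between them. Hoxd8, a homeobox gene of this kind, was at 50.5 to 72.4 CPM in the 6 libraries of the first set and at 4.45 to 5.51 CPM in the 4 of the second, in both genotypes alike, while Hoxa13 was at 0.354 to 1.39 and 1.98 to 7.12 CPM. Whether the sets hold different muscles was not tested. Muscle genes dominated every library: Ckm, the muscle creatine kinase, stood at 4180 to 10200 CPM. Xist, which female cells express, was at 141 to 201 CPM in the 10 libraries. Y-linked genes summed to 1.62 to 6.35 CPM, with the highest sums in WT.2Weeks replicates 4 and 5 (6.35 and 4.94 CPM). The term for Y-linked counts used below is built on this low sum.

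At 2 weeks 3881 of 13789 genes tested differed between DUX4 and WT muscle (28.1%). Of these 2193 rose (15.9% of the genes tested) and 1688 fell (12.2%). The rises were larger than the falls: the median called rise was 0.78 and the median called fall −0.57, and 312 genes rose by a log2 change of 2 or more while 9 fell by as much. Transcripts that were nearly missing from WT muscle made up the far end, with 65 genes under 1 CPM in WT and at 5 CPM or more with DUX4, and 1 gene in the reverse position. The median over all genes tested was 0.00. The groups did not overlap for 14.2% of the genes tested, with 9.09% above and 5.07% below all WT libraries.

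The second set, with 2 libraries a group, gave 16 calls by itself, against 3120 in the first set. Of 3008 first-set calls that could be compared, 2797 had the same direction in the second set. The median change of the genes that rose in the first set was 1.05 there and 0.78 in the second, and for those that fell it was −0.72 and −0.38. These genes were picked by their call in the first set, which favours larger changes there. The medians therefore do not compare the strength of the effect between the sets. Of all list members described below 1 was called in the second set alone, and this is not repeated at each list. Lists are described by their counts and medians, to be read beside 15.9% called higher and 12.2% called lower among all tested genes.

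Genes known to respond to DUX4 in mouse muscle cells are described first. This list, like the others, was chosen with earlier results of these data known, so it is not an independent check of the labels. All 6 genes of the list rose, with a median of 2.63. Wfdc3, which encodes a secreted whey acidic protein domain protein, was at 61.7, 89.9, 40.8, 17.4 and 113 CPM in IDUX.2Weeks replicates 1 to 5 and at 0.482, 0, 0.272, 0.269 and 0 CPM in WT.2Weeks replicates 1 to 5. Every DUX4 library was far above every WT library, with replicate 4 the lowest of the DUX4 libraries. The change of Wfdc3 was 8.13 ± 0.79 (adjusted p = 0.000281), with 7.83 in the first set and 8.64 in the second.

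Most of the other responsive genes began from higher WT levels. Sord, the sorbitol dehydrogenase of the polyol pathway, was at 403, 566, 417, 347 and 630 CPM in the DUX4 libraries in order and at 88.3, 61, 59, 67.1 and 67 in the WT libraries, a change of 2.79 ± 0.19 (adjusted p = 4.8e-05). Ilvbl rose by 2.48 ± 0.18 and Serpinb6c, a serine protease inhibitor gene near 0 in WT, by 6.11 ± 0.97 (adjusted p = 5.44e-05 and 0.00184). The groups did not overlap for Wfdc3, Sord, Ilvbl, Serpinb6c or Slc15a2. The peptide transporter gene Slc15a2 rose by 2.07 ± 0.50 (adjusted p = 0.0162). It lost its call without IDUX.2Weeks replicate 5 (adjusted p = 0.0534), with a term for Y-linked counts (0.0516) and in the first set alone (0.0904). Agtrap, whose groups overlapped through IDUX.2Weeks replicate 4, rose by 0.95 ± 0.25 (adjusted p = 0.0208). That call was lost without IDUX.2Weeks replicate 1 (adjusted p = 0.0553) or 5 (0.054), without WT.2Weeks replicate 2 (0.0521) or 4 (0.0503), and with the Y-linked term (0.0526).

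Of the genes switched on from nearly nothing, 11 had no count in any WT library. Aadac, a lipid esterase gene best known from liver, was at 27.2, 32.7, 18, 5.79 and 26 CPM in the DUX4 libraries in order and at 0 in all 5 WT libraries (adjusted p = 0.00257). Against the limit of 3 counts per WT library it was at least 93.5-fold higher. Teddm3, a transmembrane epididymal protein gene, was at 10.5, 20.3, 6.6, 7.84 and 19.8 CPM (at least 55.5-fold higher, adjusted p = 0.0018).

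Pth, the parathyroid hormone gene, was at 7.33, 6.44, 6.86, 4.72 and 10.1 CPM and also at 0 in all WT libraries (at least 30.2-fold higher, adjusted p = 0.000163). Areg, which encodes the epidermal growth factor receptor ligand amphiregulin, was at 6.49, 17.3, 3.77, 2.51 and 20.5 CPM with no WT count (at least 43.1-fold higher, adjusted p = 0.015). The call for Areg was lost without the low-count filter (adjusted p = 0.0873) and with the Y-linked term (0.0656). For these 4 genes the lowest DUX4 library was at 2.51 to 6.6 CPM. A gene with no WT count passes the low-count filter (minimum 10 counts) only if every DUX4 library reaches about that level. That each DUX4 library lay above the limit for a WT count of 0 therefore follows from the filter and is no added evidence.

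Receptor and surface genes with large rises included Agtr2, Entpd3, Lpar3 and Tmem92. Agtr2, the type 2 angiotensin II receptor gene (ENSMUSG00000068122; GRCm38 chromosome X, 21484544 to 21489164), was at 77.8, 164, 44.9, 41.1 and 96.2 CPM in the DUX4 libraries and at 0.724, 0, 0.0906, 0 and 0 in WT, a change of 8.88 ± 0.76 (adjusted p = 0.000163). Entpd3, an ectonucleotidase gene, was at 36.2 ± 21.4 CPM (SD, n = 5) against 0.0771 ± 0.0748 (n = 5), a change of 8.59 ± 0.78 (adjusted p = 0.000187). Lpar3, a lysophosphatidic acid receptor gene, rose by 7.70 ± 0.75 (adjusted p = 0.000219) and Tmem92, a transmembrane protein gene, by 8.91 ± 0.71 (adjusted p = 0.000108).

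Transcription factor genes of other lineages were among them. Nfe2, known from platelet and red cell precursors, was at 6.88, 7.62, 4.4, 6.78 and 8.14 CPM in the DUX4 libraries and detected in 1 WT library at 0.134 CPM (log2 7.32 ± 0.49, adjusted p = 3.28e-05). Eomes, a T-box gene of the early embryo and of lymphocytes, was at 6.1, 35.9, 5.03, 1.37 and 4.1 CPM against 0, 0, 0.0906, 0.0672 and 0.0934 (log2 7.29 ± 1.10, adjusted p = 0.00185). IDUX.2Weeks replicate 2 was the highest for Eomes by a wide gap. All DUX4 libraries were above all WT libraries, which the rule for naming the largest rises requires. Of 15 T and natural killer cell marker genes 0 passed the low-count filter, which does not show that such cells were absent. Before TMM scaling, Cd3e reached 1.57 CPM with DUX4 and 2.16 CPM in WT, while Nkg7 had no count in any library. Which cells the Eomes counts came from was not tested.

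**Figure D1:**
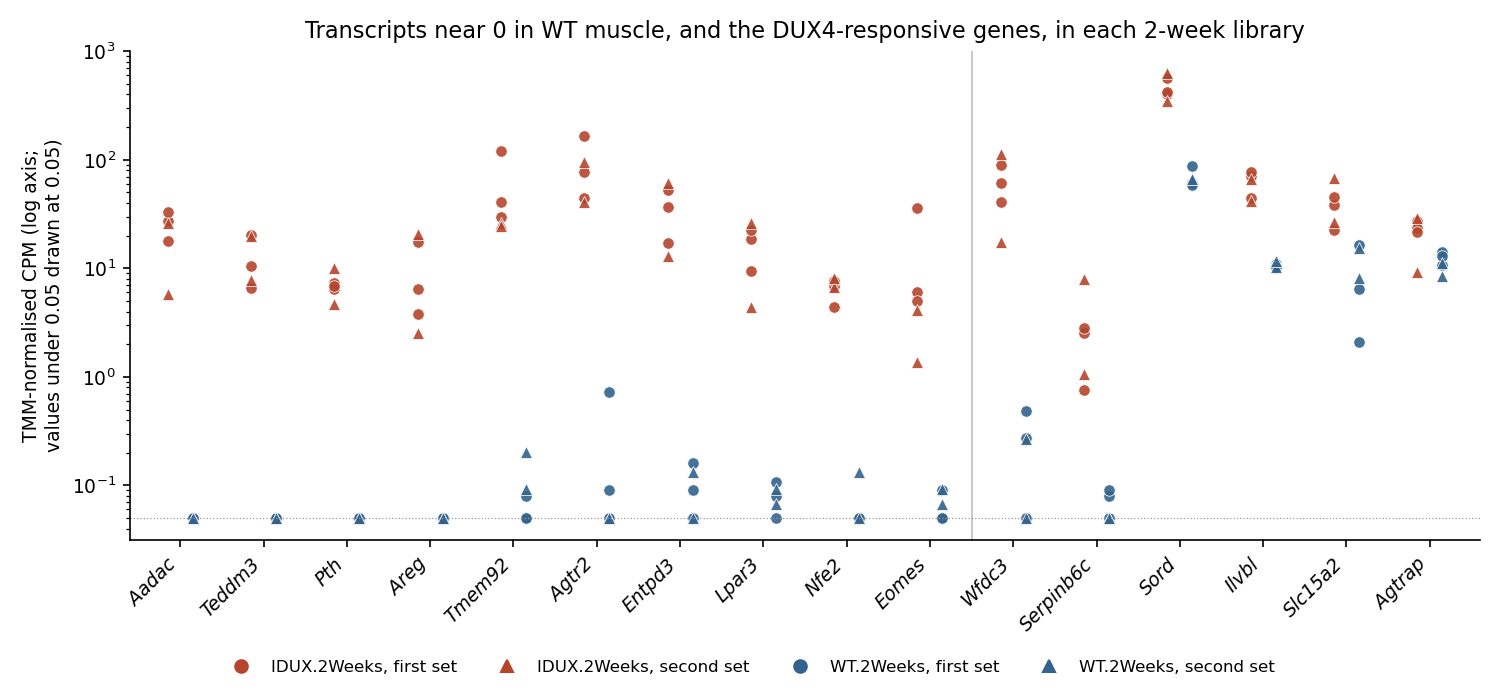
TMM-normalised CPM on a log axis in each of the 10 libraries for 10 of the largest rises (left of the line) and the 6 DUX4-responsive genes (right), with circles for the first set and triangles for the second. Aadac, Teddm3, Pth and Areg have no WT count (drawn at 0.05). The largest rises were chosen among genes whose groups do not overlap, so their separation is part of the choice. Among the 6 DUX4-responsive genes the groups overlap only for Agtrap.

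Muscle fibres that lose their nerve, and fibres that regenerate, express acetylcholine receptor subunits outside the synapse, embryonic forms of contractile proteins and early muscle regulators. Of 16 denervation genes tested, 12 rose and 0 fell, with a median of 1.36; 1 fell with limma voom, in the first set alone, or without IDUX.2Weeks replicate 4 or WT.2Weeks replicate 5. Of 15 genes of muscle regeneration 11 rose and 0 fell (median 1.45), a count of 7 with the Y-linked term or in the first set alone. Of 9 embryonic contractile genes 6 rose (median 1.77), or 3 without the term for sets or in the first set alone, where 1 fell. The denervation and regeneration lists share Ncam1, Myog and Chrng. Related lists were mixed. Of 19 atrophy genes 6 rose and 6 fell (median −0.08), with 3 rises without the term for sets or in the first set alone and 2 with all 18 whole-muscle libraries. Of 14 neuromuscular junction genes 5 rose and 3 fell (median 0.15). The junction falls were 1 without the term for sets, with 18 libraries, or without IDUX.2Weeks replicate 1, 2, 3 or 5 or WT.2Weeks replicate 1, 2 or 3.

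Ankrd1, a stress-induced ankyrin repeat protein of the sarcomere (ENSMUSG00000024803; chromosome 19, 36111961 to 36120099), was at 193, 191, 183, 103 and 405 CPM in the DUX4 libraries and 12.4, 4.49, 3.17, 8.19 and 9.71 CPM in the WT libraries. The groups were far apart, and the change was 4.81 ± 0.47 (adjusted p = 0.000271), 4.80 in the first set and 4.83 in the second. Runx1, a transcription factor that denervated muscle switches on, was at 29.9, 43.8, 31.6, 13.3 and 29.1 CPM against 9.41, 2.89, 4.71, 2.01 and 1.49 CPM, with no overlap (log2 2.94 ± 0.37, adjusted p = 0.000661). Nes, the intermediate filament gene nestin, was at 125 ± 14.7 CPM (SD, n = 5) against 52.4 ± 4.71 (n = 5) (log2 1.25 ± 0.10, adjusted p = 6.35e-05).

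The acetylcholine receptor genes moved with them. The fetal subunit gene Chrng was at 14.6, 17.7, 14.2, 1.6 and 4.92 CPM with DUX4 and at 6.83, 0.321, 0.543, 0.0672 and 0.28 CPM in WT, where replicate 1 stood apart and lay above 2 of the DUX4 libraries. Its rise of 2.88 ± 0.76 (adjusted p = 0.0212) was lost without IDUX.2Weeks replicate 2 (adjusted p = 0.0518), without the term for sets (0.0942), with the Y-linked term (0.061), without the low-count filter (0.0777) and in the first set alone (0.123). Chrna1, the alpha subunit gene, rose by 1.58 ± 0.23 and Chrnd, the delta subunit gene, by 1.56 ± 0.19 (adjusted p = 0.00119 and 0.000378). For Chrna1 the lowest DUX4 library, at 38.8 CPM, was just under the highest WT library, at 39.2 CPM. Ache, the acetylcholinesterase gene of the synapse, was at 189, 161, 181, 152 and 262 CPM against 38.7, 39.4, 41.3, 30.2 and 54.9 CPM, with no overlap (log2 2.21 ± 0.18, adjusted p = 7.07e-05). Ncam1, the neural cell adhesion molecule gene, rose by 1.38 ± 0.23 (adjusted p = 0.00216).

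Among the embryonic contractile genes, Sln, the sarcolipin gene that inhibits the calcium pump, was at 358, 404, 196, 41.7 and 302 CPM with DUX4 and 38.8, 1.93, 2.72, 1.28 and 1.4 CPM in WT. The 4 WT libraries other than replicate 1 were at 1.28 to 2.72 CPM, and DUX4 replicate 4, at 41.7 CPM, was close to WT replicate 1. Sln rose by 5.20 ± 1.05 (adjusted p = 0.00806; 0.0648 in the first set alone). The perinatal myosin gene Myh8 was at 290 ± 157 CPM (SD, n = 5) against 50.8 ± 40 (n = 5) (log2 2.56 ± 0.41, adjusted p = 0.00241), and Tnnt2, the cardiac and embryonic troponin T gene, rose by 1.84 ± 0.41 (adjusted p = 0.011). The embryonic myosin gene Myh3 rose by 2.09 ± 0.62 (adjusted p = 0.0351) and lost its call without IDUX.2Weeks replicate 1 (0.0652), 2 (0.0745), 3 (0.0661) or 5 (0.0956) or WT.2Weeks replicate 3 (0.0662) or 5 (0.0678), without the term for sets (0.072), without the low-count filter (0.103) and in the first set alone (0.141). Actc1, the cardiac actin gene, did not pass the test (log2 −0.25 ± 0.62, adjusted p = 0.799). Its change was −1.32 in the first set and 1.47 in the second.

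The muscle regulators were not alike. Myog, the differentiation factor myogenin, was at 61, 68.5, 44.8, 20.9 and 60.4 CPM against 29.7, 3.85, 15.3, 5.64 and 5.23 CPM (log2 2.23 ± 0.52, adjusted p = 0.0141; 0.0542 with the Y-linked term and 0.119 in the first set alone). Myod1, which acts before it, had a log2 change of −0.21 ± 0.29 (adjusted p = 0.627). Of 19 satellite cell genes, which mark the stem cells of muscle, 1 rose and 3 fell, with a median of −0.02. Among all tested genes 15.9% were called higher and 12.2% lower. The satellite cell falls were 1 without the term for sets or with all 18 whole-muscle libraries.

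The E-box CAGCTG is a motif that muscle regulators of the Myod1 family bind. It was searched on both strands in RefSeq promoters on GRCm38.p6, from 250 bases before to 50 after each start, and was held by 5 of 13 denervation genes with a promoter there (38.5%), against 18.3% of all 27025 promoters. Of the 9 denervation genes with a promoter that were called higher, 3 held it (33.3%). The 2 subunit promoters below are examples picked because they hold the motif and their genes were called higher. Capitals mark the motif, and the 250 bases before the start are printed.
Chrna1 (chr2:73580339-73580588, minus strand): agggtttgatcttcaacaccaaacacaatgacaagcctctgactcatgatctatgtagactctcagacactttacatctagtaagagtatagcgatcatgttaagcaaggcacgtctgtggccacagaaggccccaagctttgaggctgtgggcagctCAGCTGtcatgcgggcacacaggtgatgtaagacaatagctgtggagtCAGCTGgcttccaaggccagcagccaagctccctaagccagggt
Chrng (chr1:87205561-87205810, plus strand): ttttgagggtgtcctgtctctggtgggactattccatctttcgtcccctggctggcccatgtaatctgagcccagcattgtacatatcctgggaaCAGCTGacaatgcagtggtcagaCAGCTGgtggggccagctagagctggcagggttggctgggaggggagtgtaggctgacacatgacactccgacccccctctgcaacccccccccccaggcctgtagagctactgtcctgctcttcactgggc
Each holds the motif at 2 places. A match is a description of the letters only. Over all genes the share of promoters with the motif was 19.1% among 1704 called higher and 21.8% among 1245 called lower.

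Genes of the mature fast fibre fell. Of 16 fast-fibre genes tested 12 fell and 0 rose (median −0.75), and of 18 genes of sarcomere structure 12 fell and 0 rose (median −0.60; 1 rose without WT.2Weeks replicate 3), with Actn3 in both lists. Actn3, the fast-fibre alpha-actinin (ENSMUSG00000006457; chromosome 19, 4861216 to 4877909), was at 1560, 1280, 1860, 3970 and 1300 CPM in the DUX4 libraries in order and 5080, 6080, 4690, 5400 and 5750 CPM in WT. DUX4 replicate 4 stood apart from the other DUX4 libraries but was still below all WT libraries. The change was −1.48 ± 0.28 (adjusted p = 0.00408), −1.75 in the first set and −1.08 in the second.

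Mylk2, the kinase that phosphorylates skeletal myosin light chain, was at 228, 144, 258, 366 and 280 CPM against 534, 798, 452, 766 and 1040 CPM, with no overlap (log2 −1.49 ± 0.20, adjusted p = 0.000766). The calcium-binding proteins of the fast fibre were lower as well. Pvalb, parvalbumin, fell by 1.06 ± 0.22 and Casq1, calsequestrin, fell by 1.01 ± 0.20 on the log2 scale (adjusted p = 0.00629 and 0.00467), and the calcium pump gene Atp2a1 had a change of −0.91 ± 0.18 (adjusted p = 0.00455). The giant sarcomere protein gene Ttn was at 8090 ± 2320 CPM (SD, n = 5) against 13500 ± 1930 (n = 5) (log2 −0.76 ± 0.18, adjusted p = 0.0113). Myh4, the fastest myosin heavy chain, had a change of −0.82 ± 0.23 (adjusted p = 0.0254), lost without IDUX.2Weeks replicate 1 (0.0604), 2 (0.0551) or 5 (0.0536) or WT.2Weeks replicate 2 (0.057). Replicate 4 of IDUX.2Weeks, at 38400 CPM, lay within the WT range for Myh4.

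The machinery that couples the membrane potential to calcium release was lower. Of 20 excitation-contraction coupling genes 12 fell and 3 rose (1 with all 18 whole-muscle libraries), with a median of −0.45. Jph2, junctophilin 2, which holds the calcium store against the outer membrane, was at 284, 177, 343, 503 and 265 CPM against 714, 668, 781, 734 and 724 CPM, with no overlap (log2 −1.23 ± 0.22, adjusted p = 0.00294). Ryr1, the calcium release channel, was at 2100 ± 612 CPM (SD, n = 5) against 3560 ± 745 (n = 5) (log2 −0.78 ± 0.18, adjusted p = 0.0106).

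Of 18 muscle ion channel and pump genes 11 fell and 1 rose (median −0.61). Clcn1, the chloride channel that steadies the muscle membrane, fell by 0.72 ± 0.13 and Kcnj11, the potassium channel that senses ATP, fell by 0.91 ± 0.15 (log2 scale, adjusted p = 0.00311 and 0.00218). The exception was Kcnk5, a two-pore potassium channel, at 8.04, 12.3, 5.09, 4.95 and 9.71 CPM with DUX4 and 0.643, 0.963, 1.18, 0.269 and 0.28 CPM in WT, with no overlap (log2 3.67 ± 0.39, adjusted p = 0.000227). Nos1, the neuronal nitric oxide synthase bound to the dystrophin complex, was at 9.73, 6.32, 15.6, 110 and 70.2 CPM against 36.2, 54.6, 33.2, 192 and 190 CPM. Both groups were higher in the second set than in the first, and within each set the DUX4 libraries were below the WT libraries. Its change of −1.59 ± 0.29 (adjusted p = 0.00375) was lost without the term for sets (adjusted p = 0.335).

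Among 28 genes that break down glucose or glycogen 17 fell and 1 rose (median −0.59), or 10 fell with all 18 whole-muscle libraries. Pygm, the muscle glycogen phosphorylase, was at 2480, 1820, 2670, 4170 and 2560 CPM against 5750, 5970, 5020, 5670 and 5440 CPM, with no overlap (log2 −1.05 ± 0.18, adjusted p = 0.00231), and Aldoa, aldolase A, was at 7410 ± 2690 CPM (SD, n = 5) against 14200 ± 2050 (n = 5) (log2 −0.98 ± 0.17, adjusted p = 0.00246). The exception was Hk1, the hexokinase of most other tissues, at 29.3, 40.2, 21.8, 28.6 and 42.8 CPM with DUX4 and 15.8, 15.4, 12, 11.8 and 10.6 CPM in WT, with no overlap (log2 1.32 ± 0.20, adjusted p = 0.00137).

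Of 13 genes of creatine and adenine nucleotide metabolism, which buffer ATP, 8 fell (median −0.54). Ampd1, the muscle AMP deaminase, fell by 1.10 ± 0.22 and Ckm fell by 0.71 ± 0.14 on the log2 scale (adjusted p = 0.00532 and 0.00456). Gatm, which makes the precursor of creatine, rose instead: it was at 124, 126, 75.3, 33.9 and 110 CPM against 17.2, 8.77, 17.6, 6.25 and 4.76 CPM, with no overlap (log2 3.20 ± 0.38, adjusted p = 0.000598). It was the 1 gene of the list called higher, against 3 with limma voom or the stricter filter and 2 with DESeq2 or without WT.2Weeks replicate 1 or 5 or IDUX.2Weeks replicate 4.

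Of 26 genes of fatty acid uptake and oxidation 4 fell and 0 rose (median −0.17), beside 12.2% called lower among all tested genes, or 7 fell without WT.2Weeks replicate 1.

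Of 18 genes of branched-chain amino acid breakdown 10 fell and 0 rose (median −0.36). Mut, the methylmalonyl-CoA mutase, fell by 0.86 ± 0.14 and Pcca, a subunit of propionyl-CoA carboxylase, fell by 0.77 ± 0.12 on the log2 scale (adjusted p = 0.00177 and 0.00158). Of 22 tricarboxylic acid cycle genes 10 fell (median −0.30), or 6 without WT.2Weeks replicate 1 or 3 or with all 18 whole-muscle libraries. Cs, citrate synthase, was at 685, 643, 761, 871 and 819 CPM against 935, 1040, 972, 1030 and 961 CPM, with no overlap (log2 −0.39 ± 0.09, adjusted p = 0.0118). Of 32 nuclear genes of the respiratory chain 8 fell (median −0.22), with 4 without WT.2Weeks replicate 1, without the term for sets or with 18 libraries, 5 without the low-count filter or WT.2Weeks replicate 3 and 13 with DESeq2.

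Calls of mitochondrially encoded genes depended on the term for sets. Of 13 tested 9 fell (median −0.69) and without the term for sets 0 did. The gene mt-Nd4 of complex I was at 10500, 11400, 14400, 27700 and 20400 CPM against 19400, 22600, 19300, 38400 and 32100 CPM: the second set was higher in both groups, and within each set the DUX4 libraries were below the WT libraries. Its change was −0.67 ± 0.15 (adjusted p = 0.00745; 0.17 without the term for sets), and that of mt-Co1 was −0.60 ± 0.15 (adjusted p = 0.0123; 0.106).

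**Figure D2:**
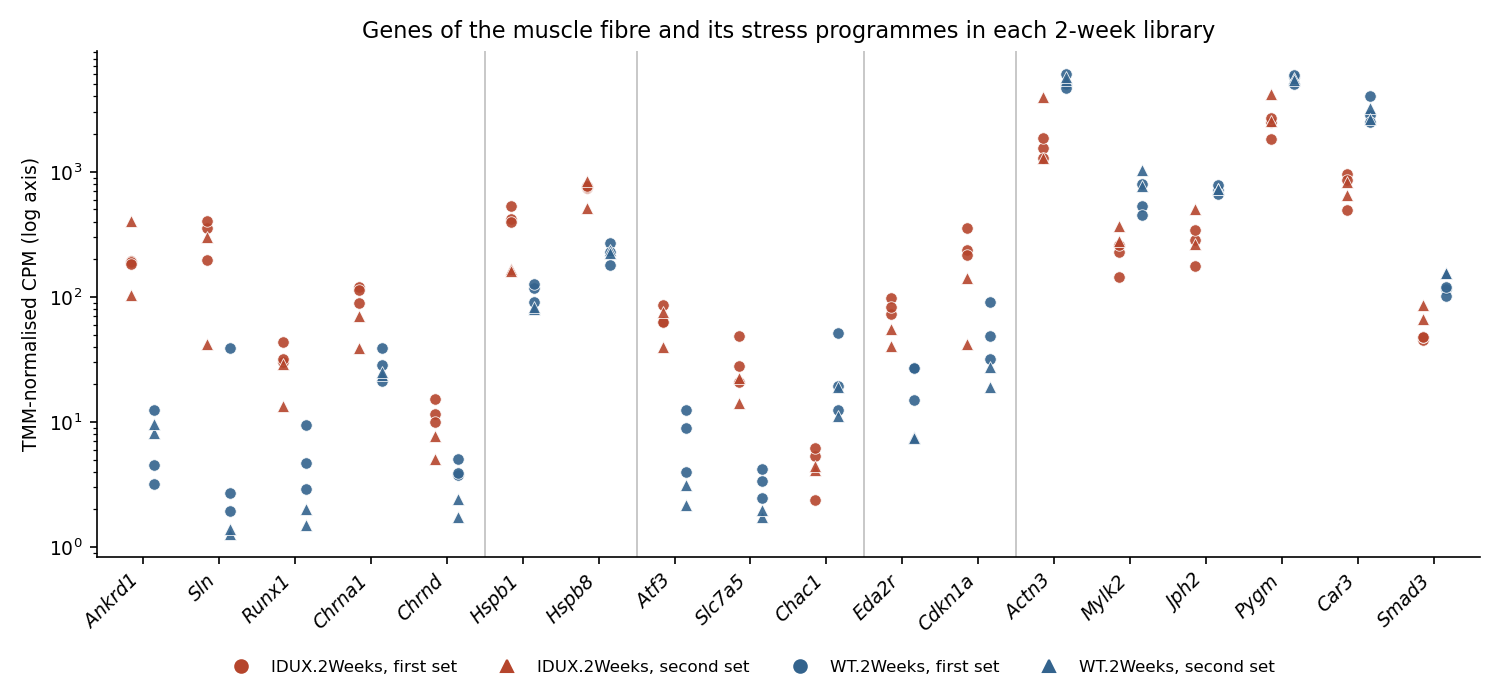
TMM-normalised CPM on a log axis in each of the 10 libraries for genes of denervation and regeneration, heat shock, amino acid stress, p53 targets and, at the right, genes of the mature fibre, with circles for the first set and triangles for the second. The groups overlap only for Chrna1, Chrnd and Cdkn1a, where IDUX.2Weeks replicate 4 is below the highest WT library, replicate 1, and for Sln the lowest DUX4 library, at 41.7 CPM, is just above the highest WT library, at 38.8 CPM.

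Chaperone genes rose. Heat shock factors bind repeated GAA and TTC letters in promoters and switch on chaperones when proteins misfold. Of 20 heat shock genes tested 12 rose and 0 fell, with a median of 0.78. Hspb8, a small chaperone that delivers damaged sarcomere proteins for disposal, was at 743, 762, 766, 516 and 848 CPM in the DUX4 libraries and 272, 181, 228, 239 and 226 CPM in the WT libraries, with no overlap (log2 1.66 ± 0.15, adjusted p = 9.93e-05). Hspb1, another small chaperone, was at 422, 400, 534, 166 and 161 CPM against 117, 91.3, 126, 80.6 and 83.4 CPM, with no overlap. Its change was 1.61 ± 0.20 (adjusted p = 0.000444), and it was 2.02 in the first set and 1.0 in the second. Hspa1b, an inducible chaperone gene, was at 49.4, 41.1, 157, 16.7 and 7.32 CPM against 1.41 to 5.25 CPM in WT, with no overlap (log2 3.76 ± 0.55, adjusted p = 0.00171). IDUX.2Weeks replicate 3 was by far the highest. Hspa1b has a near-identical copy, Hspa1a, and how reads were divided between them is uncertain.

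Hspa4l, a nucleotide exchange factor for these chaperones, rose by 2.45 ± 0.26 (adjusted p = 0.000226), and Bag3, the partner of Hspb8, by 0.53 ± 0.13 (adjusted p = 0.0141; 0.05 without IDUX.2Weeks replicate 5). In RefSeq promoters the letters GAANNTTC, searched on both strands and equal to their own reverse complement, were held by 11 of 15 heat shock genes (73.3%), and by 6 of the 9 among them called higher, against 9.04% of all promoters. Among all genes called higher the share was 6.63%, and among those called lower 6.51%. The promoter of Hspb1 is shown since its gene was above all WT libraries in both sets; capitals mark the 2 matches.
Hspb1 (chr5:135887669-135887918, plus strand): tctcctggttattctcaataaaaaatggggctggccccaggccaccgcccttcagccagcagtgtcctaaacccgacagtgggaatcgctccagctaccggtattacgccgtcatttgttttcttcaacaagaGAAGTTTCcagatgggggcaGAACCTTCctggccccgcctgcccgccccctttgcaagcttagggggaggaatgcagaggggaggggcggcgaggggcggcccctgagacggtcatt
They start 117 and 97 bases before the gene's start.

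Genes that repair myofibrils and membranes overlapped with this group. Of 18 myofibril repair genes, 5 of them chaperone genes of the list above, 9 rose and 4 fell (0 without the term for sets, 2 with the Y-linked term). Xirp1, which gathers at sites of fibre damage, was at 285, 257, 392, 317 and 358 CPM against 148, 108, 170, 132 and 122 CPM, with no overlap (log2 1.24 ± 0.15, adjusted p = 0.000407), and Flnc, filamin C, rose by 0.86 ± 0.11 (adjusted p = 0.000444). Of 19 membrane repair genes 8 rose and 2 fell, the falls beside 12.2% called lower among all tested genes. Anxa7, an annexin, was at 137 ± 55.5 CPM (SD, n = 5) against 33.2 ± 12 (n = 5) (log2 2.06 ± 0.25, adjusted p = 0.000483), while Capn3, the muscle calpain, fell by 0.99 ± 0.17 on the log2 scale (adjusted p = 0.00286). The count of falls was 1 without the term for sets, with 18 libraries, without the low-count filter, and without IDUX.2Weeks replicate 1, 2 or 5 or WT.2Weeks replicate 1, 2 or 3.

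The integrated stress response, in which the factor Atf4 raises genes for amino acid supply, was split. Of 28 genes tested 7 rose and 5 fell (3 with the Y-linked term), with a median of 0.08. The genes that rose (Psat1, Slc7a5, Mthfd2, Phgdh, Atf3, Slc3a2 and Asns) make or import amino acids, serve folate metabolism or encode the stress factor Atf3. Slc7a5, the large neutral amino acid transporter, was at 28.1, 48.7, 21, 14.3 and 22.3 CPM against 4.18, 2.46, 3.35, 1.75 and 1.96 CPM, with no overlap (log2 3.29 ± 0.26, adjusted p = 6.35e-05). Phgdh and Psat1, enzymes of serine synthesis, rose by 2.21 ± 0.23 and 1.92 ± 0.15 (adjusted p = 0.000185 and 5.9e-05). Asns, asparagine synthetase, rose by 1.35 ± 0.31 (adjusted p = 0.0106; 0.157 without the term for sets and 0.103 in the first set alone). Atf3 was at 63.5, 62.7, 86.9, 40 and 75.5 CPM against 9.01, 3.96, 12.4, 3.16 and 2.15 CPM, with no overlap (log2 3.55 ± 0.39, adjusted p = 0.00038).

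Chac1, a glutathione-degrading enzyme that is a usual target of the same response, moved the other way. It was at 5.32, 2.36, 6.23, 4.11 and 4.45 CPM with DUX4 and 19.5, 51, 12.4, 11.1 and 18.9 CPM in WT, with WT.2Weeks replicate 2 far above the others and no overlap (log2 −2.27 ± 0.44, adjusted p = 0.00567). Atf4 itself had a change of −0.28 ± 0.11 (adjusted p = 0.0955) and Ddit3, the stress factor CHOP, of 0.23 ± 0.16 (adjusted p = 0.328). The letters TGATGNAA, searched on both strands as a form of the site of Atf4 dimers, were held by 11 of 26 genes of this list (42.3%) against 4.51% of all promoters; by 2 of the 6 called higher and 3 of the 5 called lower that have a promoter. Promoters of Asns and Chac1 are shown because both hold the letters (in capitals) and their genes moved in opposite directions.
Asns (chr6:7693210-7693459, minus strand): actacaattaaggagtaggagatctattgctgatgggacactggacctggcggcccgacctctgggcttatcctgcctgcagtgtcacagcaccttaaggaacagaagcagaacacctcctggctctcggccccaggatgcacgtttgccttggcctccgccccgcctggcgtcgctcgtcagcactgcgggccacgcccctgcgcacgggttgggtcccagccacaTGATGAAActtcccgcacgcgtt
Chac1 (chr2:119350992-119351241, plus strand): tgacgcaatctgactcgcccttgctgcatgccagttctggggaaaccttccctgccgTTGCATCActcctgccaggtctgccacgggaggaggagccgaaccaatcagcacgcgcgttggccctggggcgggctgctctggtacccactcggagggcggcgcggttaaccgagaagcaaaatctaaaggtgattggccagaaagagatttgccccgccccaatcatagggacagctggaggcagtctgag
The match lies 23 bases before the start of Asns and 193 bases before that of Chac1. The homeobox motif that DUX4 binds (TAA, any 3 bases, AATCA, on either strand) was in 0 of 6 DUX4-responsive promoters, in 0.587% of those called higher, in 0.723% of those called lower, in 0.637% of those of all tested genes and in 1.2% of all promoters; such a window says nothing of binding elsewhere.

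Targets of p53, which halts or kills damaged cells, were mostly higher. Of 22 tested 12 rose (median 0.49) and 2 fell, the falls beside 12.2% called lower among all tested genes. The falls were 1 without the term for sets, with 18 libraries, without the low-count filter, or without IDUX.2Weeks replicate 1, 3 or 4 or WT.2Weeks replicate 2, 3 or 4. Eda2r, a death receptor of the tumour necrosis factor family, was at 72.8, 98.5, 82.4, 40.3 and 55.5 CPM against 26.9, 27.2, 14.9, 7.59 and 7.38 CPM, with no overlap (log2 2.18 ± 0.22, adjusted p = 0.000187). Ccng1, cyclin G1, was at 2650 ± 274 CPM (SD, n = 5) against 1330 ± 242 (n = 5) (log2 1.0 ± 0.12, adjusted p = 0.000399). Cdkn1a, the cell cycle inhibitor p21 that is also in the denervation list, was at 237, 354, 216, 42.3 and 142 CPM against 91.1, 32.1, 48.4, 27.3 and 19.2 CPM, where IDUX.2Weeks replicate 4 lay within the WT range (log2 2.13 ± 0.38, adjusted p = 0.00427). Zmat3 and Mdm2, the latter the ligase that limits p53, rose by 1.24 ± 0.22 and 0.58 ± 0.13 (adjusted p = 0.00275 and 0.00896).

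Of 22 apoptosis genes 6 rose and 2 fell, beside 15.9% called higher and 12.2% called lower among all tested genes. The falls were 4 with DESeq2 or limma voom and 1 with the Y-linked term.

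Of 21 tubulin, cytoplasmic actin, intermediate filament and related cytoskeletal genes 12 rose and 2 fell (median 0.57), while their summed level overlapped between the groups, at 2110 to 2750 CPM with DUX4 and 2520 to 2800 CPM in WT. The falls were 1 with 18 libraries, without the low-count filter, with the stricter filter, with the Y-linked term, in the first set alone, and without IDUX.2Weeks replicate 1, 2 or 5 or WT.2Weeks replicate 2, 3, 4 or 5. Stmn1, stathmin, which loosens microtubules, was at 17.5, 11.9, 13.7, 10.6 and 19.9 CPM against 4.9, 4.71, 5.34, 3.56 and 4.67 CPM, with no overlap (log2 1.67 ± 0.20, adjusted p = 0.00033). The tubulin genes Tubb2b and Tuba1c rose by 2.67 ± 0.38 and 2.13 ± 0.25 and the thymosin gene Tmsb10 by 1.25 ± 0.27 (adjusted p = 0.00129, 0.000432 and 0.00885). Tubulin genes resemble each other, which leaves the split of reads between them uncertain. Krt18, a keratin of simple epithelia, was at 7.39, 13.1, 5.6, 3.43 and 10.5 CPM against 2.17, 0.428, 0.181, 0.134 and 0.187 CPM, with no overlap (log2 3.76 ± 0.67, adjusted p = 0.00357).

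Cell division genes were at low levels. Of 18 mitosis genes 9 rose and 0 fell (median 0.96), with 3 without IDUX.2Weeks replicate 1, 5 without IDUX.2Weeks replicate 3 or WT.2Weeks replicate 4 and 4 with the stricter filter. Cenpf, a kinetochore protein, was at 8.76, 6.73, 3.33, 4.57 and 7.59 CPM against 1.21, 0.214, 1.18, 0.604 and 1.12 CPM, with no overlap (log2 2.82 ± 0.40, adjusted p = 0.00101), and Top2a, the topoisomerase of dividing cells, was at 8.58 ± 1.74 CPM (SD, n = 5) against 2.86 ± 1.23 (n = 5) (log2 1.58 ± 0.29, adjusted p = 0.00346). Of 21 DNA replication genes 5 rose, beside 15.9% called higher among all tested genes. The count was 3 without IDUX.2Weeks replicate 5, with 18 libraries, with the stricter filter or with the Y-linked term. Ccne1, cyclin E1, rose by 2.83 ± 0.38 (adjusted p = 0.000694).

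Several genes of the signal that holds back muscle growth were lower. Of 14 genes of the activin and myostatin pathway 6 fell and 2 rose (median −0.21). Myostatin, Mstn, is the ligand; it was at 12.3, 12.1, 24.8, 44.1 and 11.7 CPM with DUX4 and 54.4, 94.2, 57.9, 70.7 and 46.3 CPM in WT, with no overlap (log2 −1.67 ± 0.42, adjusted p = 0.0175; 0.0633 without the low-count filter). Its receptor gene Acvr2b was at 2.72, 2.19, 2.83, 2.13 and 2.19 CPM against 5.71, 4.81, 4.62, 4.43 and 4.11 CPM, with no overlap (log2 −0.97 ± 0.15, adjusted p = 0.00146). Smad3, which carries the signal to the nucleus, was at 44.8, 47.4, 47.9, 85.8 and 66 CPM against 116, 101, 121, 154 and 154 CPM, also with no overlap (log2 −1.17 ± 0.10, adjusted p = 6.35e-05). Fst, follistatin, the secreted inhibitor of the ligands, rose by 1.35 ± 0.33 (adjusted p = 0.0135; 0.0591 with the Y-linked term). The count of rises was 1 without the low-count filter, in the first set alone, and without IDUX.2Weeks replicate 1, 2 or 5 or WT.2Weeks replicate 1, 3 or 4.

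Of 12 genes of polyamine metabolism 3 rose (5 without IDUX.2Weeks replicate 4) and 2 fell, near the 15.9% and 12.2% of all tested genes. Smox, spermine oxidase, was at 11.6, 6.91, 15.3, 21.8 and 14 CPM against 28.9, 102, 48.3, 65.3 and 71.1 CPM, with no overlap (log2 −2.21 ± 0.36, adjusted p = 0.00265). Amd1, which supplies the aminopropyl group for polyamines, was at 80.7 ± 26.8 CPM (SD, n = 5) against 195 ± 32.6 (n = 5) (log2 −1.30 ± 0.19, adjusted p = 0.00116); it has a near-identical copy, Amd2, and the split of reads between them is uncertain. Against these, Sms, spermine synthase, rose by 1.05 ± 0.17 and Odc1, the first enzyme of the pathway, by 0.82 ± 0.10 (adjusted p = 0.00205 and 0.000462; Odc1 0.15 with 18 libraries).

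Among the largest falls outside these pathways, Car3, the muscle carbonic anhydrase (ENSMUSG00000027559; chromosome 3, 14863512 to 14872523), was at 954, 493, 855, 830 and 651 CPM against 2830, 4060, 2480, 3210 and 2640 CPM. All DUX4 libraries were below all WT libraries, which the rule for naming the largest falls requires (log2 −2.01 ± 0.20, adjusted p = 0.000167). Plcd4, a phospholipase C, fell by 1.82 ± 0.24 and Ankrd23, a sarcomere ankyrin protein related to Ankrd1, fell by 1.54 ± 0.16 on the log2 scale (adjusted p = 0.000888 and 0.000203). Stat5b, the growth hormone signal transducer, was at 90.3 ± 31.3 CPM (SD, n = 5) against 231 ± 33.6 (n = 5) (log2 −1.38 ± 0.14, adjusted p = 0.000174).

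**Figure D3:**
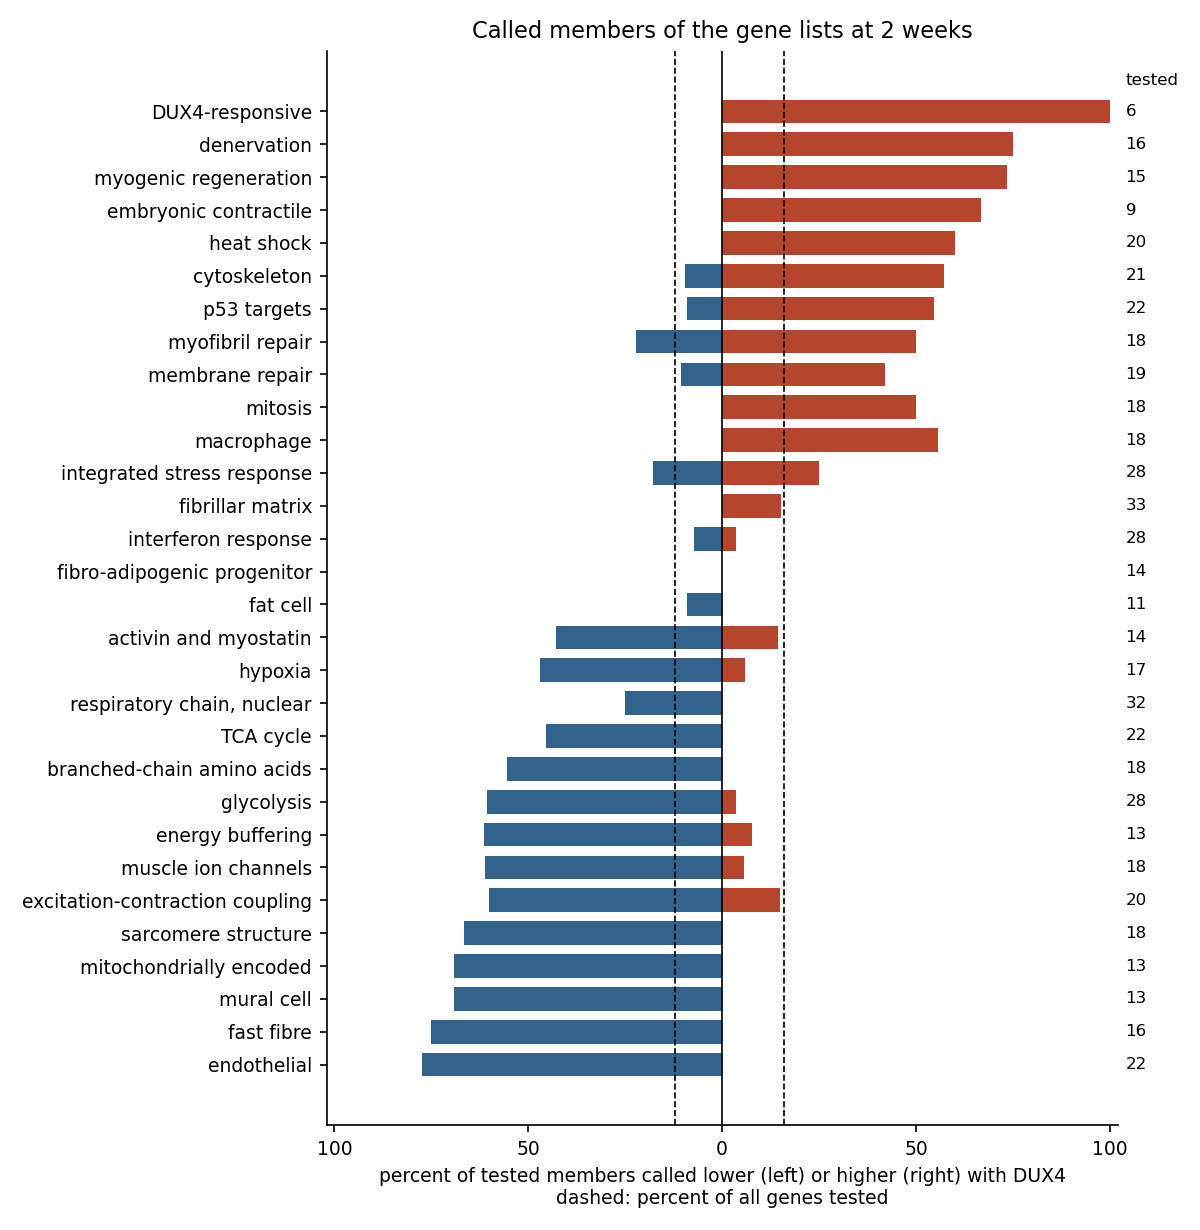
Percent of the tested members of 30 gene lists called higher (red, right) or lower (blue, left) with DUX4 at 2 weeks, with the number tested at the right; dashed lines mark 15.9% and 12.2%, the shares of all 13789 genes. All 6 DUX4-responsive genes rose, 17 of 22 endothelial genes fell, and 0 of 14 fibro-adipogenic progenitor genes were called.

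Whole muscle holds other cells, and fewer cells of a type cannot be told apart from less RNA per cell in these data. Of 18 macrophage genes 10 rose and 0 fell (median 0.65). Cd68, a lysosomal protein of macrophages (ENSMUSG00000018774; chromosome 11, 69664213 to 69666153), was at 27.4, 42, 33, 15.6 and 43.8 CPM against 3.78, 3.85, 3.44, 1.01 and 0.654 CPM, with no overlap (log2 3.81 ± 0.42, adjusted p = 0.000377), and Lgals3, galectin 3, was at 34.2, 19.9, 18.2, 5.86 and 8.69 CPM against 7.8, 2.57, 4.35, 1.01 and 1.4 CPM (log2 2.38 ± 0.31, adjusted p = 0.000648). For Lgals3 the groups overlapped through IDUX.2Weeks replicate 4 and WT.2Weeks replicate 1. The defining marker Adgre1 had a change of 0.49 ± 0.23 (adjusted p = 0.139), and the receptor gene Csf1r rose by 1.61 ± 0.24 (adjusted p = 0.00146; 0.0793 without the term for sets). The summed level of the list was 109 to 305 CPM in the DUX4 libraries and 54.8 to 216 CPM in the WT libraries. The count of rises was 2 without the term for sets, 3 with 18 libraries, and 6 with the Y-linked term or without IDUX.2Weeks replicate 1; 1 gene fell without WT.2Weeks replicate 3.

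Vessel genes were lower within sets. Of 22 endothelial genes, which line vessels, 17 fell and 0 rose (median −0.67), and of 13 genes of mural cells, which wrap them, 9 fell and 0 rose (median −0.70). Without the term for sets 2 endothelial and 1 mural genes fell, and with 18 libraries 3 and 5. Pecam1, the endothelial surface protein CD31, was at 51.6, 40, 59.1, 108 and 84.1 CPM against 84.5, 82.5, 81.3, 207 and 132 CPM. Both groups were higher in the second set, and within each set the DUX4 libraries were below the WT libraries (log2 −0.76 ± 0.14, adjusted p = 0.00357; 0.128 without the term for sets). Rgs5, a pericyte gene, had a change of −0.92 ± 0.19 (adjusted p = 0.00554; 0.218 without the term for sets and 0.077 with 18 libraries). The summed endothelial level was 486 to 1320 CPM with DUX4 and 912 to 1590 CPM in WT. Whether cell number, RNA per cell or the makeup of the dissected tissue moved these sums was not tested.

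Beside the connective tissue and immune response lists, 15.9% of all tested genes were called higher and 12.2% lower. Of 14 markers of fibro-adipogenic progenitors, the connective tissue cells of muscle, 0 were called in edgeR's test (1 at an unadjusted p under 0.05; median −0.28). In the first set alone 6 of them fell, and 5 fell without IDUX.2Weeks replicate 4, 2 with the Y-linked term and 1 with DESeq2 or limma voom, while 1 rose without WT.2Weeks replicate 1. Of 28 interferon response genes 1 rose and 2 fell (median −0.15). The rise was not called without the term for sets or without IDUX.2Weeks replicate 2, 3 or 5 or WT.2Weeks replicate 3 or 5, and 1 of the falls was not called without any single library other than IDUX.2Weeks replicate 4 and WT.2Weeks replicate 4. Of 33 fibrillar matrix genes 5 rose, that is, 15.2%, with a median of 0.05. Tnc, tenascin C, was at 15.3, 14.9, 15, 8.83 and 13.1 CPM against 2.73, 2.03, 3.08, 4.63 and 5.42 CPM, with no overlap (log2 1.93 ± 0.26, adjusted p = 0.000772), and Col11a1, a fibrillar collagen, rose by 2.61 ± 0.39 (adjusted p = 0.0013). The matrix count was 2 without the term for sets, with the Y-linked term, in the first set alone or without WT.2Weeks replicate 4 or 5, and 3 with 18 libraries or without IDUX.2Weeks replicate 2 or 5. No matrix gene fell in the fit of all 10 libraries, while 5 fell without IDUX.2Weeks replicate 4, 6 in the first set alone and 2 with limma voom or the Y-linked term. Fat cell genes varied widely between libraries of both groups. Before TMM scaling, Ucp1 reached 321 CPM with DUX4 and 367 CPM in WT, and Pck1 283 and 318 CPM, while each had no count in 1 library. Such spread limits what a lack of calls can show. Of 11 fat cell genes 0 rose (1 without WT.2Weeks replicate 2 or with limma voom) and 1 fell, the glycerol channel gene Aqp7. Its call was close to the threshold (log2 −0.53, adjusted p = 0.0492 in edgeR's test) and was lost without IDUX.2Weeks replicate 1, 2, 4 or 5 or WT.2Weeks replicate 2, 3, 4 or 5, without the term for sets, with 18 libraries, with limma voom, with the Y-linked term and in either set alone. Of 13 genes of NF-kappaB signalling and acute inflammation 4 rose and 1 fell, with a median of 0.01, the fall being lost without IDUX.2Weeks replicate 5, without the term for sets, with the stricter filter, with the Y-linked term or in the first set alone, and 2 without IDUX.2Weeks replicate 4. Of 13 class I antigen presentation genes 3 rose and 0 fell (median 0.03); 1 rose without the low-count filter or without IDUX.2Weeks replicate 1, 2 or 5 or WT.2Weeks replicate 1.

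The libraries differed in how far they moved. As a description, the median of each list was taken in each library relative to the WT mean of its set, on the scale log2(CPM + 0.5). For the DUX4-responsive list it was 2.54, 2.79, 1.91, 1.77 and 2.89 in IDUX.2Weeks replicates 1 to 5. For denervation it was 1.34, 1.6, 1.16, 0.83 and 1.18, and for fast-fibre genes −0.94, −1.25, −0.85, −0.26 and −0.85. Replicate 4 had the smallest shift in these lists and in those for regeneration, heat shock, p53 targets, glycolysis, endothelial and mitochondrially encoded genes, whereas for macrophage genes replicate 5 did. Among the WT libraries replicate 1 had the highest regeneration median, at 0.60, and replicate 2 the lowest, at −0.45. Leaving out IDUX.2Weeks replicate 4 raised the number of genes called to 4591, and leaving out IDUX.2Weeks replicate 5 lowered it to 2751.

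**Figure D4:**
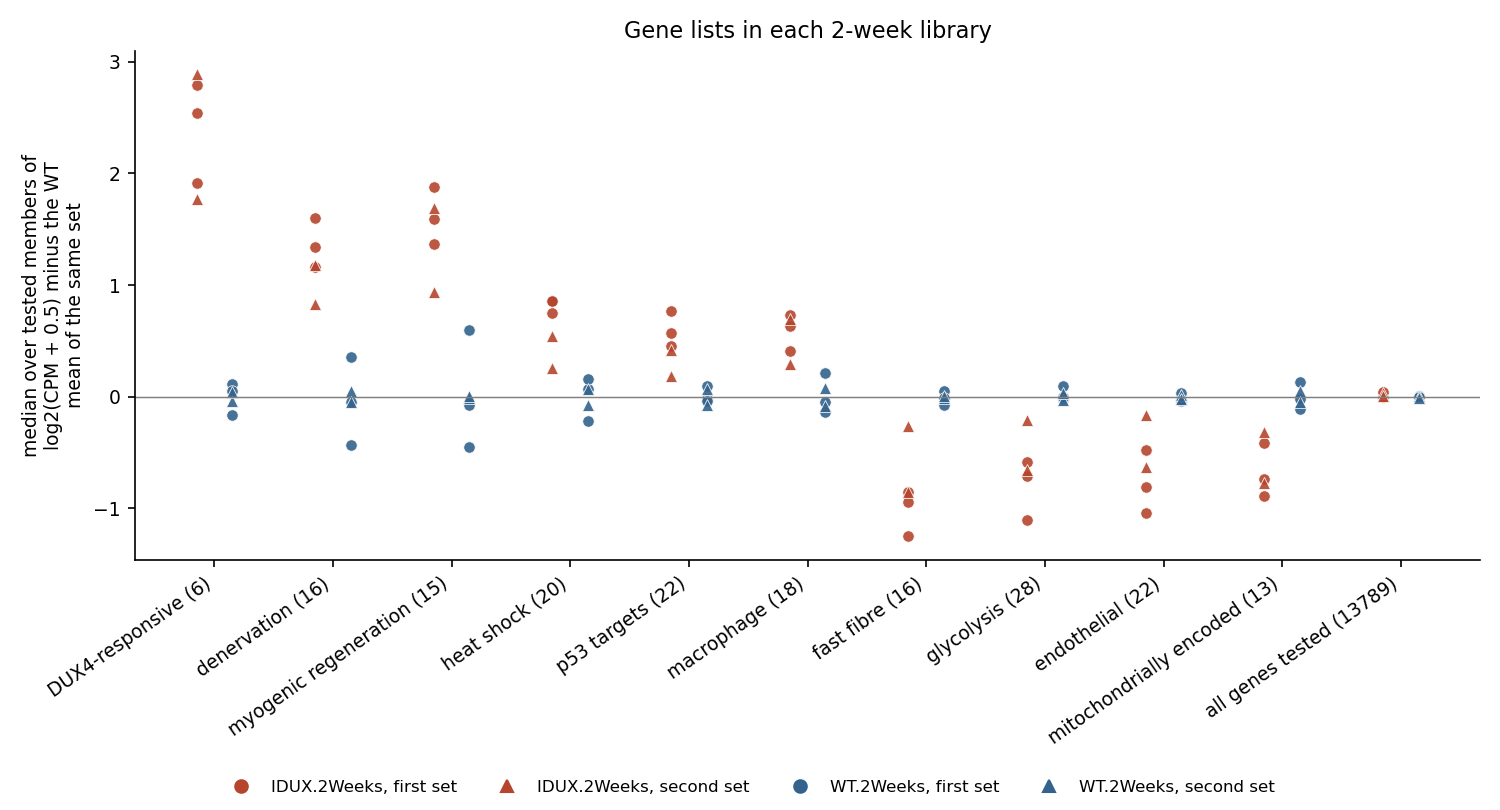
Median over the tested members (number in brackets) of log2(CPM + 0.5) minus the WT mean of the same set, for 10 lists and for all genes, in each library; circles are the first set and triangles the second. The WT libraries centre near 0 by construction, and the lists were chosen with earlier results of these data known. The DUX4 and WT libraries separate in each of the 10 lists. The gap is small for macrophage genes (lowest DUX4 library 0.29, highest WT library 0.21) and p53 targets (0.19 and 0.10). IDUX.2Weeks replicate 4 is nearest to WT in all lists but the macrophage list, and the medians of all genes lie between −0.01 and 0.04.

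The DUX4 effect was tested for a difference between the sets. It differed for 4 of 13789 genes (0.029%), and 898 genes had an unadjusted p under 0.05. DESeq2 gave 25 genes. Without a single library the number ran from 0 (WT.2Weeks replicate 4) to 95 (WT.2Weeks replicate 5), with 1 or 2 when any of the 6 first-set libraries was left out. These 4 genes are Cilp, Casr, Zfp385a and Pak1. Cilp, a cartilage and matrix protein gene, was at 205, 260, 266, 182 and 264 CPM with DUX4 and 149, 129, 105, 10.5 and 11.3 CPM in WT: the DUX4 libraries were alike in both sets, and the WT libraries of the second set were far below those of the first. Zfp385a showed the same kind of difference, at 85.1, 112, 76.7, 48.7 and 76.9 CPM against 99, 90.4, 95, 9.67 and 7.94 CPM. Casr, the calcium-sensing receptor gene, was above WT in both sets, by 2.01 in the first and 4.04 in the second.

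The same comparison at 16 weeks used other libraries (4 against 4) and shares no sample with the one at 2 weeks. There 3101 of 14627 genes were called (21.2%), with 1668 higher (11.4%) and 1433 lower (9.8%). Of the 2163 genes called higher at 2 weeks and tested at 16 weeks, 864 were called higher at 16 weeks (39.9%), 3 were called lower and 1806 had the same direction. Of 1677 called lower, 686 were again called lower (40.9%), 6 were called higher and 1528 had the same direction. Read from the other end, 59.3% of the 16-week rises and 49% of the 16-week falls had been called in that direction at 2 weeks. Leaving out 1 of the 16-week libraries moved the share of 2-week calls called in the same direction, 40.4% over both directions, to between 25.8% and 59.4%; the lowest values, 25.8% and 26.7%, came when IDUX.16Weeks replicate 1 or 4 was dropped, and the highest when WT.16Weeks replicate 1 was.

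The gene groups had different profiles at the 2 times, whose difference was not tested for lists. The 6 DUX4-responsive genes were called higher at both, with medians of 2.63 and 2.10. Fast-fibre genes had medians of −0.75 and −0.77, with 12 and 9 of 16 called lower (adjusted p under 0.05). Heat shock genes had 12 of 20 called higher at 2 weeks and 3 of 20 at 16 weeks (medians 0.78 and 0.07), and denervation genes 12 and 5 of 16 (medians 1.36 and 0.93). In the other direction, interferon response genes had 1 of 28 called higher at 2 weeks and 13 of 26 at 16 weeks (medians −0.15 and 1.29), fat cell genes 0 of 11 and 8 of 10 (medians −0.08 and 2.35), and fibrillar matrix genes 5 and 10 of 33 (medians 0.05 and 1.19). The wide spread of fat cell genes between the 2-week libraries, given above, limits the comparison for that list. Endothelial genes, with 17 of 22 called lower at 2 weeks, had medians of −0.67 and −0.35.

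**Figure D5:**
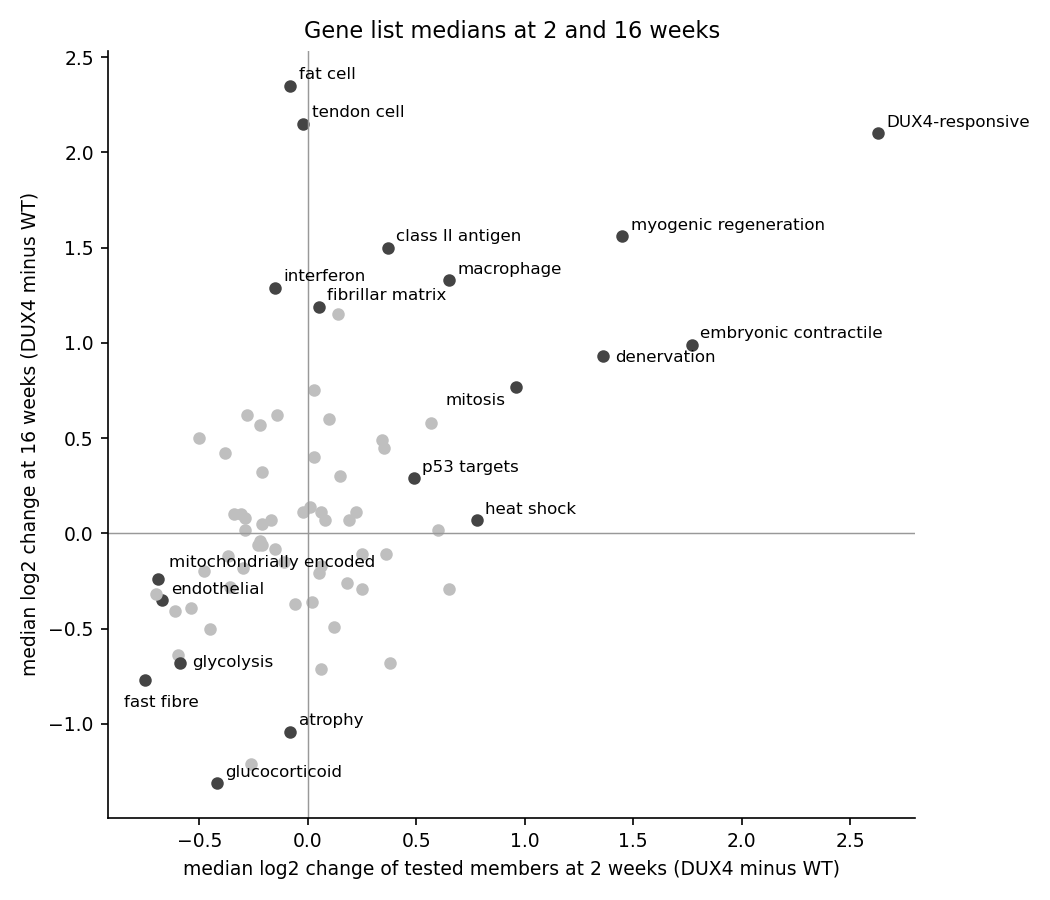
Median log2 change (DUX4 minus WT) of the tested members of 73 gene lists with at least 5 tested members at both times, 2 weeks on the horizontal axis and 16 weeks on the vertical. The DUX4-responsive list lies at 2.63 and 2.10, the fast-fibre list at −0.75 and −0.77, and the fat cell list near 0 at 2 weeks and at 2.35 at 16 weeks.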

How the data were processed

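RNA from 10 whole-muscle libraries at 2 weeks, and from 8 at 16 weeks, was read as the authors' deposited estimated counts per Ensembl gene (43035 genes in each table, not normalised). Per the submitters' processing notes, CASAVA 1.8, Salmon 0.6.0 and the build mm10 were used; how transcripts were summed to genes, and by which annotation, is not given in the sources used here. Symbols came from GENCODE vM21 for 42545 genes. The estimated counts were rounded, genes were filtered with filterByExpr (minimum 10 counts), and edgeR 4.0.16 (R 4.3.3) fitted TMM-normalised counts with robust quasi-likelihood dispersions, a term for the sets and a term for genotype; p-values were adjusted over all genes tested (threshold 0.05). SE is the log2 change divided by the root of the F statistic. Replicate numbers follow the order of sample listing.

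Totals of 10611275 to 17798523 counts set the precision, with 3 counts as the limit for a count of 0. On data simulated for this comparison (13437 genes) 61% of 100 genes changed by log2 1 and 88% of 100 changed by log2 2 were recovered, with 7 false calls. No other gene was changed in the simulation, whereas 28.1% of genes were called in the data. Adjusted p depends on that share, so recovery in the data may differ. Alternatives were DESeq2 1.42.0, limma 3.58.1 voom with quality weights, no filter, a minimum of 50 counts, size factors by relative log expression, no term for sets, a term for Y-linked counts, all 18 libraries, each set alone, and each library left out. The gene lists (78) and the members described were chosen with earlier results of these data known. Named genes were the 12 largest rises and 12 largest falls with at least 5 CPM in the higher group, an established symbol and no overlap of the groups, up to 3 called members of each list with the smallest p, the DUX4-responsive list, and other list members with their values; not all are described. For the difference between sets the rule took the 4 smallest p in each direction, and the called genes are described. Sorted-cell libraries of the series were not used here.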

Additional observations from a re-analysis of the deposited data

Results flagged for a closer look

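In 222 groups of 5 libraries (111 genes in each group) 21 held 1 library that stood apart from the other 4 by Dixon's criterion (critical value 0.71). For independent, normally distributed values this criterion flags about 1 in 20 groups. Here the values are CPM, each group mixes the 2 sets and some genes move together. The count of 21 therefore cannot be read against that rate. IDUX.2Weeks replicate 4 was the high one for genes of the mature fibre: Actn3 at 3970 CPM, Atp2a1 at 24600 CPM, Myh4 at 38400 CPM, Ryr1 at 3140 CPM, and Ttn at 12200 CPM. It was also the high one for Stat5b at 144 CPM and the cardiac actin gene Actc1 at 3280 CPM. WT.2Weeks replicate 1 was the high WT library for the early muscle genes Sln at 38.8 CPM, Myh8 at 119 CPM, Myh3 at 95.5 CPM and Chrng at 6.83 CPM, and also for Sord at 88.3 CPM, Casq1 at 3750 CPM and Krt18 at 2.17 CPM.

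Among single genes, IDUX.2Weeks replicate 2 stood apart for Tmem92 at 120 CPM, Eomes at 35.9 CPM and Hspa4l at 35.4 CPM. IDUX.2Weeks replicate 3 did for Hspa1b at 157 CPM, IDUX.2Weeks replicate 5 for Serpinb6c at 8.0 CPM, IDUX.2Weeks replicate 1 for Myod1 at 19.7 CPM and WT.2Weeks replicate 2 for Chac1 at 51.0 CPM.

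The DUX4 effect differed between the sets of libraries, by the test of the difference itself in edgeR, for 4 genes. The second set minus the first was 3.42 ± 0.29 (SE) on the log2 scale for Cilp (adjusted p = 0.00743), 2.88 ± 0.31 for Zfp385a (adjusted p = 0.0282), 2.03 ± 0.24 for Casr (adjusted p = 0.0397) and 1.67 ± 0.20 for Pak1 (adjusted p = 0.0439). Pak1 was at 26.1 to 35.5 CPM in all DUX4 libraries, at 37.7 to 43.8 CPM in WT of the first set and at 14.3 and 14.8 CPM in WT of the second.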

How the results depend on the processing

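The number of genes called, 3881, was 16 in the second set alone and 2697 to 4325 under the other planned settings, with 2751 to 4591 when 1 library was left out. The 486 called members of the gene lists became 318 without the term for sets and 1 in the second set alone, and 386 to 564 without 1 library. The number of genes whose effect differed between sets, 4, became 25 with DESeq2 and 0 to 95 without 1 library. The share of 2-week calls called in the same direction at 16 weeks, 40.4%, became 47.7% with DESeq2, 51.2% with all 18 libraries and 25.8% to 59.4% without 1 of the 16-week libraries. The DUX4 motif was in 0.587% of the promoters of genes called higher and in 0 in the second set alone; its cause was not tested. Of 104 called genes among the 111 followed, 84 lost their call under no alternative other than the second set alone, where 100 were lost with 2 libraries a group. A gene that the filter of an alternative removed was not counted as lost, so fewer than 84 may have stayed called throughout. No result for a single gene changed direction while called. The balance of calls in a list could: for fibrillar matrix 5 rose and 0 fell in the main fit, against 2 and 6 in the first set alone. No paired analysis was possible because replicate numbers only follow the order of sample listing. Depth limits the genes near 0 in WT, whose log2 changes depend on the prior count, and the sets cannot be told apart from anything else that differed between those libraries.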

Other observations

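Of 12 myokine genes, which encode signals secreted by muscle, 2 rose (1 with the stricter filter) and 4 fell (median −0.50), beside 15.9% called higher and 12.2% called lower among all tested genes. The falls numbered 2 without the term for sets, with the Y-linked term or without WT.2Weeks replicate 3 and 1 with all 18 libraries. Ostn, which encodes the muscle hormone musclin, was at 30.1, 28.3, 23.7, 33.4 and 129 CPM in IDUX.2Weeks replicates 1 to 5 and at 1.29, 0.749, 0.906, 3.29 and 1.49 CPM in WT.2Weeks replicates 1 to 5. All DUX4 libraries were far above all WT libraries, and the change was 4.90 ± 0.42 (SE, adjusted p = 0.000125 in edgeR's quasi-likelihood test). At 16 weeks the change of Ostn was 0.70 (adjusted p = 0.52). Bdnf, a nerve growth factor also made in muscle, was at 3.81 to 10.5 CPM against 1.13 to 2.90 CPM, a rise of 1.72 ± 0.38 (adjusted p = 0.00862).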
